A study of Mus musculus with 20 samples.

Results

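Overexpression of the forkhead factors Foxk1 and Foxk2 was compared gene by gene in 3T3-L1 adipocytes, a mouse cell line of Swiss strain origin that grows as preadipocytes and is differentiated into fat cells in culture. The question was which genes responded differently to the 2 factors. For each gene the effect of each factor was its difference from its own controls in log2(RPKM + 0.5), where RPKM is the read count scaled to gene length and library depth, and the Foxk2 effect was then subtracted from the Foxk1 effect. A value above 0 thus means that a gene stood higher, relative to its controls, with the Foxk1 label than with Foxk2, and a value below 0 means the reverse. The comparison used 10 of the series' 20 libraries: 3 from cells with a construct for constitutive expression of FOXK1, 3 from their empty-vector controls, 2 from cells with a FOXK2 construct and 2 from their own empty-vector controls. The first 6 are called the Foxk1 set and the last 4 the Foxk2 set. Cells of every group had been differentiated with insulin at 5 µg/ml, troglitazone at 10 µM, dexamethasone at 1 µM and isobutyl methylxanthine at 0.5 mM, had received insulin alone from day 4, and had been kept in growth medium from day 6. Whether the replicates came from separate cultures is not given, and each p-value therefore reflects library-to-library spread that may be purely technical.

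FOXK1 and FOXK2 are closely related transcription factors that share a forkhead DNA-binding domain and a forkhead-associated domain that binds phosphorylated proteins. Both are known to recruit the SIN3 repressor complex, and insulin signalling is known to move them into the nucleus, in contrast to the FOXO factors that it drives out. In fat and muscle cells they have been linked to glucose use and to restraint of autophagy genes, and their binding motifs overlap widely.

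Depth was 17328261 to 19976807 assigned reads in the Foxk1 set and 31388128 to 36157008 in the Foxk2 set. Adipocyte markers were abundant in all 10 libraries, with the adipokine gene Adipoq at 647 to 2085 RPKM. Of the macrophage markers, Adgre1 and Ptprc were at or near 0, but Cd68 stood at 1.53 to 3.42 RPKM. Csf1r differed between the sets. Its means were 1.43 RPKM in the Foxk1 set's controls and 1.79 RPKM in the libraries labelled Foxk1 overexpression. They were 0.0266 RPKM in the Foxk2 set's controls and 0.0253 RPKM with Foxk2 overexpression. The endothelial markers Kdr and Pecam1 did not exceed 0.00353 and 0.362 RPKM. Muscle Myod1 and Myog were listed at 0 in all 10 libraries. The summed RPKM of 22 adipocyte markers was 16950 to 17240 in the Foxk1 set's controls against 12440 to 12540 in the libraries labelled Foxk1 overexpression, and 15570 to 15800 against 12140 to 12210 in the Foxk2 set. The summed RPKM of 24 fibroblast and preadipocyte markers was 1577 to 1823 against 690.3 to 707, and 1477 to 1505 against 682 to 685. These sums thus moved the same way in both sets, but they weigh abundant genes most. The median effect of the 21 tested adipocyte markers was only -0.051 with the Foxk1 label and -0.056 with Foxk2. That of the 21 tested fibroblast and preadipocyte markers was -1.59 and -1.40. The part of these shifts in the differences below was not tested. Control means of the sets differed at least 2-fold for 19.8% of tested genes and 17.2% of called genes. Factor, depth, number of replicates and starting level of the controls change together between the sets and cannot be told apart.

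Transcripts of the targeted genes differed between the experiments, and for Foxk1 not in the direction of its label. Foxk1 (chr5:142401497-142462011, build mm10) stood at 7.12, 7.48 and 8.04 RPKM in the Foxk1 set's controls, 6.16, 6.06 and 6.08 RPKM in the libraries labelled Foxk1 overexpression, 11.6 and 11.6 RPKM in the Foxk2 set's controls and 6.98 and 7.3 RPKM with Foxk2 overexpression. It was lower than in the controls in every library labelled Foxk1 overexpression and in both Foxk2 libraries, and the fall was larger with Foxk2, by a difference of 0.38 ± 0.074 (SE; limma adjusted p = 0.00755). Foxk2 (chr11:121259990-121309896) stood at 11.4, 11.5 and 10.9 RPKM in the Foxk1 set's controls, 14.1, 14 and 13.5 RPKM in the libraries labelled Foxk1 overexpression, 13.4 and 13.3 RPKM in the Foxk2 set's controls and 19.9 and 20 RPKM with Foxk2 overexpression. Every library with either construct lay above all controls of its set, and the rise was larger with the Foxk2 construct, by -0.28 ± 0.053 (SE; limma adjusted p = 0.00743). The labels do not give the species or codon use of the FOXK1 construct. Whether RNA from the construct is counted as Foxk1 here is therefore not known. Because Foxk1 RNA fell where its label says overexpression, those libraries are called the libraries labelled Foxk1 overexpression throughout.

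Of 15085 genes tested, 3286 (21.8%) differed in effect at a limma adjusted p below 0.05, 1536 (10.2%) above 0 and 1750 (11.6%) below 0. Of these, 79 had a difference of 1 or more and 162 of -1 or less on the log2 scale. Taken singly, the effect of the Foxk1 label was called in 46.7% of tested genes and that of Foxk2 in 43.7%. Most genes with a called difference differed in size of effect or passed the single test in 1 set alone: 1056 had a called effect with Foxk2 alone, 864 with the Foxk1 label alone, 718 changed in the same direction in both sets but more with Foxk2, and 284 in the same direction but more with the Foxk1 label. In 320 genes (2.12% of those tested) both effects were called and ran in opposite directions, 169 (1.12%) up with the Foxk1 label and 151 (1%) up with Foxk2. Only 9 of the 320 had both effects at 0.5 or more in size. Overexpression and control libraries did not overlap for 53.7% of tested genes in the Foxk1 set and 71.7% in the Foxk2 set, which is the background for every statement on overlap below. The effects of the 2 sets, which share no libraries, had a Pearson correlation of 0.63 and a Spearman correlation of 0.57 across the 15085 genes, which are not independent of each other. The count of called genes was 1943 without replicate 2 of the Foxk2 set's controls and 1921 without replicate 2 of Foxk2 overexpression; opposite effects then numbered 192 and 194.

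**Figure D1:**
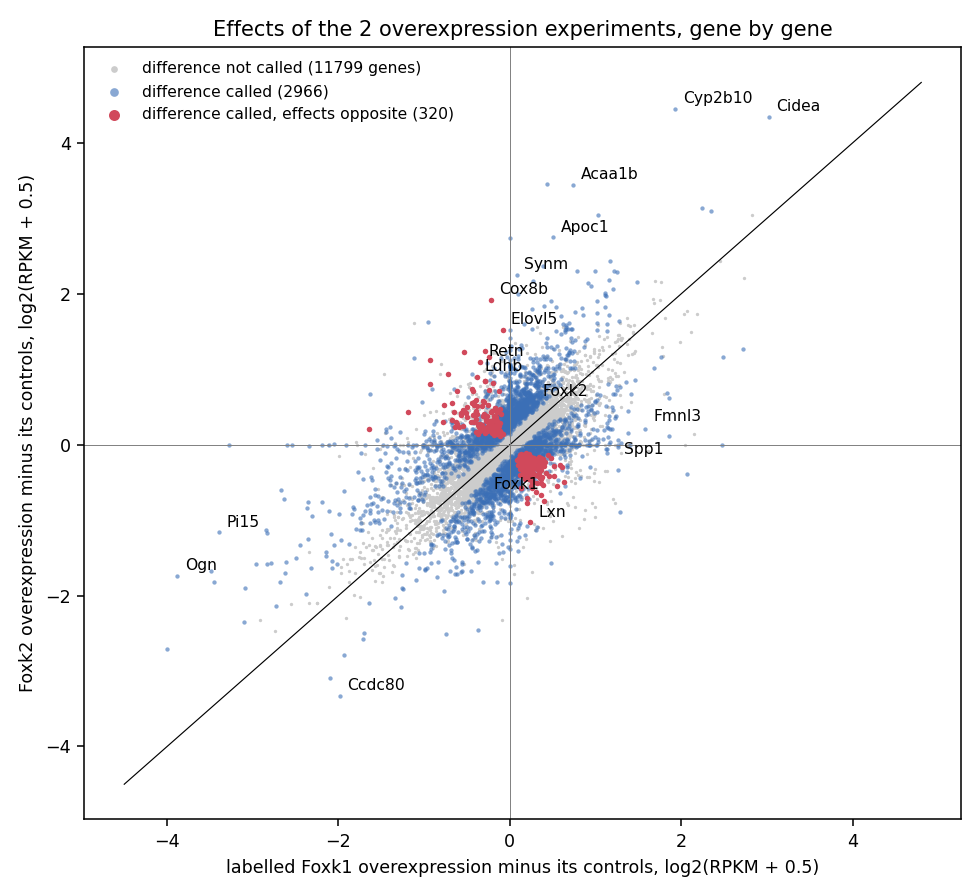
Effect of the libraries labelled Foxk1 overexpression (horizontal) against the effect of Foxk2 overexpression (vertical), each as the difference from its own controls in log2(RPKM + 0.5); each point is 1 of 15085 genes. The line marks equal effects; the 3286 called genes lie off it, and the 320 genes with opposite called effects lie at the upper left and lower right of the origin.

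Of the 10 largest differences below 0, 7 were of genes that rose with Foxk2 and rose less, or did not rise, with the Foxk1 label, and 3 were of genes for secreted or matrix proteins that fell more with the Foxk1 label. Ranked among called genes with a mean of at least 2 RPKM in some group of each set, the 10 largest ran from Acaa1b at -2.71 to Ffar4 at -1.90, and the genes just outside, Mb, Col11a1 and Itgbl1, stood at -1.90, -1.85 and -1.82. Acaa1b (chr9:119148023-119157093), a peroxisomal thiolase of fatty acid breakdown, stood at 6.47, 5.18 and 6.25 RPKM in the Foxk1 set's controls, 10.9, 9.98 and 9.86 RPKM in the libraries labelled Foxk1 overexpression, 2.42 and 2.46 RPKM in the Foxk2 set's controls and 31.2 and 31.8 RPKM with Foxk2 overexpression. The controls did not overlap with the overexpression libraries in either set, but the rise was 1.67-fold with the Foxk1 label and 10.9-fold with Foxk2 on the scale with 0.5 added, a difference of -2.71 ± 0.12 (SE; limma adjusted p = 8.07e-06). Cyp2b10 (chr7:25897620-25926624), a cytochrome P450 best known from xenobiotic metabolism in the liver, stood at 1.29, 1.48 and 1.39 RPKM in the Foxk1 set's controls, 6.34, 6.71 and 6.93 RPKM in the libraries labelled Foxk1 overexpression, 1.91 and 2.08 RPKM in the Foxk2 set's controls and 49.5 and 58.7 RPKM with Foxk2 overexpression. Every overexpression library lay above its controls, and the 2 Foxk2 libraries stood far above all others, with a difference of -2.52 ± 0.11 (SE; limma adjusted p = 8.07e-06). Apoc1 (chr7:19689481-19692660), an apolipoprotein gene, stood at 519, 521 and 508 RPKM in the Foxk1 set's controls, 729, 730.1 and 735 RPKM in the libraries labelled Foxk1 overexpression, 77 and 67.8 RPKM in the Foxk2 set's controls and 484 and 491 RPKM with Foxk2 overexpression. Its Foxk2 set's controls were low beside the other 8 libraries, so that Foxk2 overexpression brought it near the level of the Foxk1 set's controls, and the difference was -2.24 ± 0.071 (SE; limma adjusted p = 1.24e-06).

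Synm, Elovl5 and Hgd separated the experiments although their control means lay less than 2-fold apart. Synm (chr7:67730160-67759742), the intermediate filament protein synemin, stood at 3.58, 3.25 and 3.19 RPKM in the Foxk1 set's controls, 3.33, 3.77 and 3.56 RPKM in the libraries labelled Foxk1 overexpression, 2.89 and 2.66 RPKM in the Foxk2 set's controls and 14.7 and 15.4 RPKM with Foxk2 overexpression. The Foxk1 set's groups overlapped, whereas both Foxk2 libraries lay above all others, a difference of -2.17 ± 0.096 (SE; limma adjusted p = 8.07e-06). Elovl5 (chr9:77917364-77984519), an elongase of polyunsaturated fatty acids, stood at 42.3, 41.9 and 41.1 RPKM in the Foxk1 set's controls, 39, 39.6 and 39.8 RPKM in the libraries labelled Foxk1 overexpression, 35.1 and 36.3 RPKM in the Foxk2 set's controls and 105 and 102 RPKM with Foxk2 overexpression. It was slightly below the controls in all 3 libraries labelled Foxk1 overexpression and well above them in both Foxk2 libraries, with a difference of -1.60 ± 0.044 (SE; limma adjusted p = 7.56e-07). Hgd, an enzyme of tyrosine breakdown, rose in both sets but more with Foxk2, by -2.01 ± 0.11 (SE; limma adjusted p = 1.82e-05). Cox8b, a cytochrome oxidase subunit of muscle and brown fat, had effects of -0.22 with the Foxk1 label and 1.92 with Foxk2, from control means of 178 RPKM in the Foxk1 set and 40.7 RPKM in the Foxk2 set to overexpression means of 153 and 155 RPKM. Ffar4, a receptor for long-chain fatty acids, differed by -1.90 ± 0.21 (SE; limma adjusted p = 0.000634), but rested on only 7 to 116 reads per library and on control means of 1.88 RPKM in the Foxk1 set and 0.248 RPKM in the Foxk2 set.

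Pi15, Ogn and Pdgfrl, which encode secreted or matrix proteins, moved down in both sets. Pi15, a secreted peptidase inhibitor, stood at 13.5, 10.8 and 12.3 RPKM in the Foxk1 set's controls, 0.673, 0.694 and 0.732 RPKM in the libraries labelled Foxk1 overexpression, 3.15 and 2.71 RPKM in the Foxk2 set's controls and 1.01 and 1.04 RPKM with Foxk2 overexpression. All overexpression libraries lay below their controls, those of the Foxk1 set from a higher start, and the difference was -2.23 ± 0.13 (SE; limma adjusted p = 3.08e-05). Ogn, the small proteoglycan osteoglycin, stood at 79, 67.1 and 69.4 RPKM in the Foxk1 set's controls, 4.79, 4.34 and 4.09 RPKM in the libraries labelled Foxk1 overexpression, 24 and 23.3 RPKM in the Foxk2 set's controls and 6.75 and 6.72 RPKM with Foxk2 overexpression. All overexpression libraries lay below all controls, the Foxk1 set's controls were the highest, and the difference was -2.14 ± 0.11 (SE; limma adjusted p = 1.36e-05). Pdgfrl, a receptor-like protein related to PDGF receptors, differed by -1.90 ± 0.11 (SE; limma adjusted p = 3.01e-05). In bulk RNA, fewer cells of a type and less RNA per cell cannot be told apart.

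**Figure D2:**
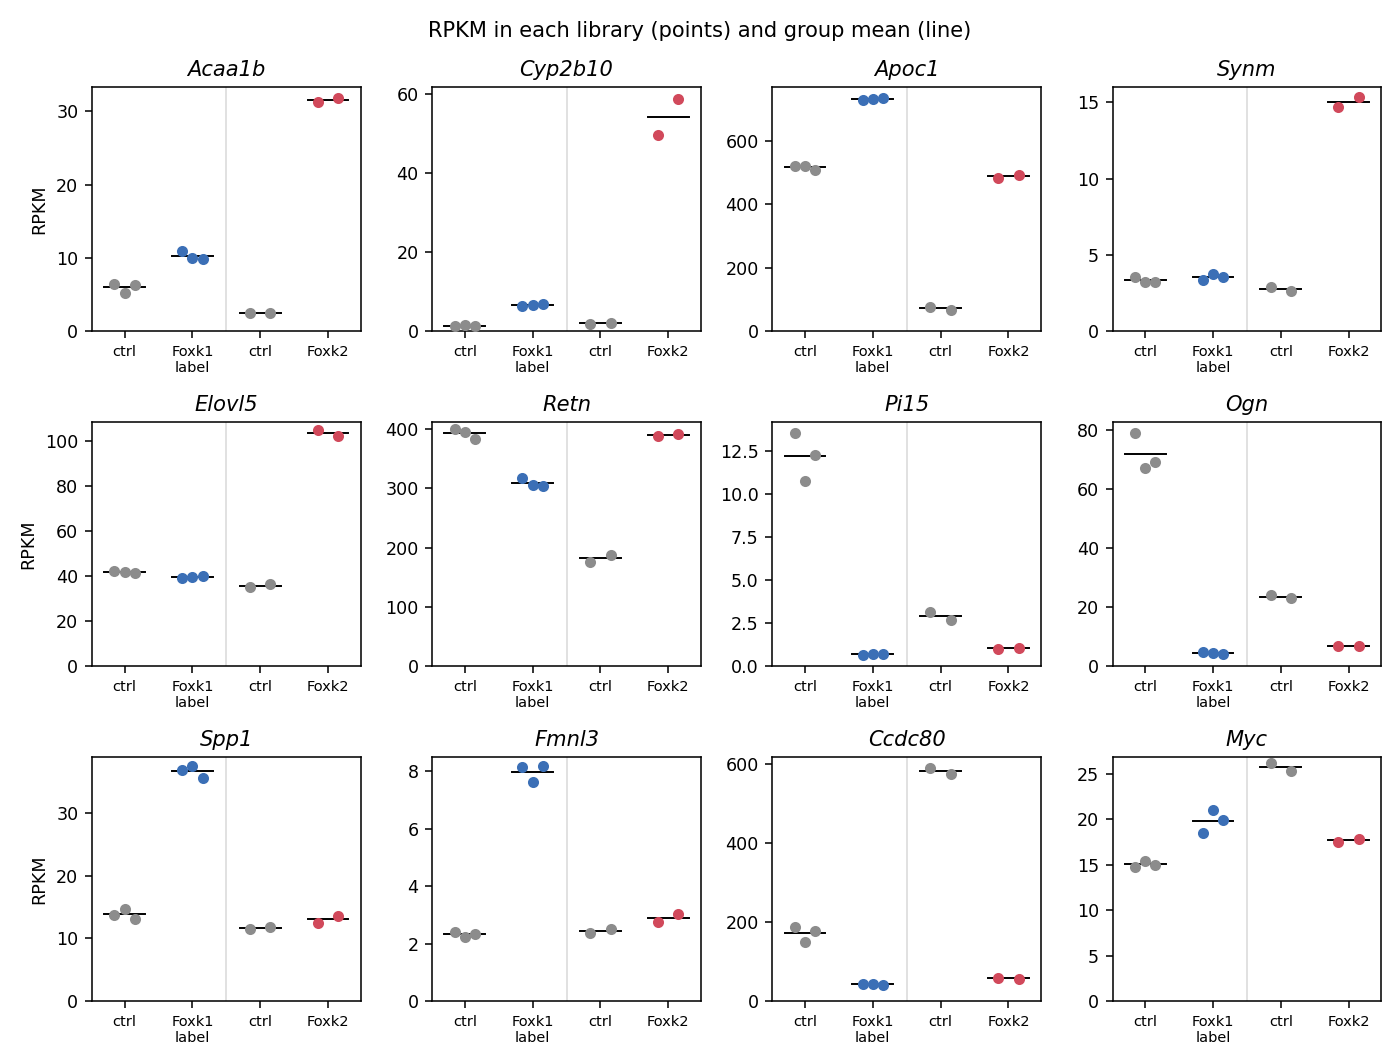
RPKM of 12 genes in each library (points; line, group mean), with the Foxk1 set left and the Foxk2 set right of the grey line in each panel and a linear axis from 0. Acaa1b, Cyp2b10, Synm and Elovl5 stand highest with Foxk2, and Spp1 and Fmnl3 with the Foxk1 label. The controls of the sets also differ in several panels, among them Acaa1b, Apoc1, Retn, Pi15, Ogn, Ccdc80 and Myc.

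The largest differences above 0 were smaller, from 2.18 for Snora2b, a small nucleolar RNA gene, to 1.20 for Plpp2, a phospholipid phosphatase; Flnc, Tmem182 and Tmc6 lay just outside at 1.18, 1.17 and 1.144. Fmnl3 (chr15:99317225-99370482), a formin that assembles actin filaments, stood at 2.41, 2.24 and 2.35 RPKM in the Foxk1 set's controls, 8.16, 7.61 and 8.18 RPKM in the libraries labelled Foxk1 overexpression, 2.36 and 2.5 RPKM in the Foxk2 set's controls and 2.75 and 3.03 RPKM with Foxk2 overexpression. The libraries labelled Foxk1 overexpression lay above all 7 others, and the difference was 1.37 ± 0.086 (SE; limma adjusted p = 3.77e-05). Spp1 (chr5:104435118-104441050), the secreted phosphoprotein osteopontin, stood at 13.8, 14.7 and 13.1 RPKM in the Foxk1 set's controls, 36.9, 37.5 and 35.5 RPKM in the libraries labelled Foxk1 overexpression, 11.6 and 11.7 RPKM in the Foxk2 set's controls and 12.5 and 13.6 RPKM with Foxk2 overexpression. It was high in the same 3 libraries and near its controls with Foxk2, a difference of 1.22 ± 0.077 (SE; limma adjusted p = 3.79e-05). Ccdc80 (chr16:45093402-45128077), a secreted matrix-associated protein made by adipose tissue, stood at 187, 149.7 and 178 RPKM in the Foxk1 set's controls, 44.5, 43.1 and 40.5 RPKM in the libraries labelled Foxk1 overexpression, 589 and 575 RPKM in the Foxk2 set's controls and 57.8 and 57.4 RPKM with Foxk2 overexpression. It fell in both sets, more with Foxk2 and from higher controls, by a difference of 1.34 ± 0.12 (SE; limma adjusted p = 0.000202).

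In 5 others the separation came mainly from a fall with Foxk2. Sox12, a high-mobility-group transcription factor, had effects of 0.32 with the Foxk1 label and -1.10 with Foxk2. Plpp2 had effects of 0.099 with the Foxk1 label and -1.10 with Foxk2. Lxn, the carboxypeptidase inhibitor latexin, had effects of 0.24 with the Foxk1 label and -1.03 with Foxk2, and both of its groups were apart in both sets. Ptma, which encodes prothymosin alpha, and Ass1, an enzyme of arginine synthesis, differed by 1.36 and 1.28, with 27.5% and 73.1% of their transcripts matched by near-identical copies at 99% identity, so both are uncertain. Snora2b is uncertain too, since 67.2% of its exon bases lie in exons of Kansl2 and it held 4 to 28 reads per library. Scd3, a stearoyl-CoA desaturase, stood at 22.2, 28.9 and 24.7 RPKM in the Foxk1 set's controls, 53.7, 55.1 and 58.9 RPKM in the libraries labelled Foxk1 overexpression, 59.8 and 92.4 RPKM in the Foxk2 set's controls and 89.5 and 52.7 RPKM with Foxk2 overexpression. Its Foxk2 groups overlapped widely, and its call (1.25 ± 0.33 (SE; limma adjusted p = 0.0254)) was lost without the second Foxk2 control (adjusted p = 0.103), the second Foxk2 overexpression library (0.0848), the first Foxk1 control (0.0536) or the third library labelled Foxk1 overexpression (0.0529), and with no filter on low values (0.0648).

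Genes with opposite called effects included several regulators. Among those up with the Foxk1 label and down with Foxk2, Myc (chr15:61985391-61990374), the growth-promoting transcription factor, stood at 14.7, 15.4 and 15 RPKM in the Foxk1 set's controls, 18.5, 21 and 19.9 RPKM in the libraries labelled Foxk1 overexpression, 26.2 and 25.3 RPKM in the Foxk2 set's controls and 17.5 and 17.9 RPKM with Foxk2 overexpression. No group overlapped with its controls, the Foxk2 set's controls were the highest libraries, and the difference was 0.91 ± 0.074 (SE; limma adjusted p = 0.000134). Slc1a4, a neutral amino acid exchanger, stood at 12.2, 12.6 and 12.2 RPKM in the Foxk1 set's controls, 15.5, 15.2 and 16 RPKM in the libraries labelled Foxk1 overexpression, 17.4 and 18.4 RPKM in the Foxk2 set's controls and 12.8 and 13.8 RPKM with Foxk2 overexpression. It was higher than all controls of its set with the Foxk1 label and lower with Foxk2, a difference of 0.75 ± 0.065 (SE; limma adjusted p = 0.00019). Bbc3, the pro-apoptotic BH3 protein PUMA, differed by 0.72 ± 0.17 (SE; limma adjusted p = 0.0163), a call lost without the second Foxk2 control (adjusted p = 0.0746) and without the second Foxk2 overexpression library (adjusted p = 0.0718). The short-chain fatty acid receptor Ffar2, the water channel Aqp1, the zinc-finger gene Zkscan17 and the membrane protein gene Tmc6 differed by 0.81, 1.03, 0.70 and 1.144. Smim27 differed by 0.87, but 32.2% of its exon bases lie opposite exons of Ndufb6 and Topors, whose reads cannot be separated from its own because no strand setting is given.

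In the other orientation, Epas1 (chr17:86753700-86833410), which encodes the hypoxia-inducible factor HIF-2alpha, stood at 6.78, 6.58 and 6.37 RPKM in the Foxk1 set's controls, 3.97, 4.11 and 3.87 RPKM in the libraries labelled Foxk1 overexpression, 10.9 and 10.7 RPKM in the Foxk2 set's controls and 15.4 and 14.3 RPKM with Foxk2 overexpression. It fell with the Foxk1 label and rose with Foxk2, without overlap in either set, by a difference of -1.10 ± 0.069 (SE; limma adjusted p = 3.77e-05). Rora (chr9:68653786-69388246), a nuclear receptor that drives clock genes, stood at 4.1, 4.43 and 4.26 RPKM in the Foxk1 set's controls, 2.31, 2.16 and 2.42 RPKM in the libraries labelled Foxk1 overexpression, 5.33 and 4.62 RPKM in the Foxk2 set's controls and 7.28 and 7.51 RPKM with Foxk2 overexpression. It too lay below all its controls with the Foxk1 label and above them with Foxk2, a difference of -1.30 ± 0.098 (SE; limma adjusted p = 9.21e-05). Retn (chr8:3655770-3660110), the adipokine resistin, stood at 400.4, 395 and 383 RPKM in the Foxk1 set's controls, 317, 307 and 305 RPKM in the libraries labelled Foxk1 overexpression, 176 and 188 RPKM in the Foxk2 set's controls and 389 and 392 RPKM with Foxk2 overexpression. The Foxk2 libraries reached the level of the Foxk1 set's controls from lower controls of their own, and the difference was -1.44 ± 0.058 (SE; limma adjusted p = 7.1e-06). The mitochondrial carrier Ucp3, the aspartoacylase Aspa, the scramblase Plscr4 and the small GTPase Rab40b differed by -1.01, -1.18, -1.33 and -1.01. Mir186 differed by -1.66 on 3 to 16 reads per library, and Tmem140 by -1.22, with 37.0% of its exon bases opposite exons of Cyren.

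The forkhead core TGTTTAC was searched on both strands in RefSeq promoter windows (GRCm38.p6, 250 bases before to 50 after each start) to ask whether it marks genes whose effects differ. It occurred in 290 of 9568 tested genes with a window (3.03%), in 2.93% of called genes above 0, in 3.24% of those below 0, and in 1.49% and 2.80% of opposite genes up with the Foxk1 label and with Foxk2. The shares among called genes were close to that of all tested genes. Of 38 genes that were targets, among the largest differences or among the opposite effects named here, 29 had a window and 3 held the motif. Their surroundings are shown 5′ to 3′ on the strand that carries the motif, with the motif in capitals: Bbc3 at chr7:16310054-16310140 on the plus strand, Sox12 at chr2:152398107-152398193 on the minus strand and Tmem140 at chr6:34862990-34863076 on the plus strand, with the motif 167, 107 and 116 bases before the start.
Bbc3: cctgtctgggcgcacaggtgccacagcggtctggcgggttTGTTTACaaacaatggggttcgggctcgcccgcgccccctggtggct
Sox12: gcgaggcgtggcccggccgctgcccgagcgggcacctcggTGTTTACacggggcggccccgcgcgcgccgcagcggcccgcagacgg
Tmem140: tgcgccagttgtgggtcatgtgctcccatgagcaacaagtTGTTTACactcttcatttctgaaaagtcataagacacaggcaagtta
A match describes the letters alone.

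Genes of mitochondrial energy metabolism rose more with Foxk2. Of 52 tested nuclear-encoded respiratory chain genes, 33 were called below 0 and none above, 63.5% beside 21.8% of all tested genes (36 and 0 at an unadjusted limma p under 0.05, 35 and 0 with voom), with a median difference of -0.30 beside -0.013 over all tested genes; their median effects were 0.23 with the Foxk1 label and 0.54 with Foxk2. Uqcrb (chr13:66900617-66905378), a subunit of complex III, stood at 198, 206 and 195 RPKM in the Foxk1 set's controls, 246, 254 and 234 RPKM in the libraries labelled Foxk1 overexpression, 48.1 and 46 RPKM in the Foxk2 set's controls and 92.3 and 95.6 RPKM with Foxk2 overexpression. It rose in both sets without overlap, from far lower controls in the Foxk2 set, with a difference of -0.70 ± 0.063 (SE; limma adjusted p = 0.000219). Ndufc1, of complex I, and Atp5j, of ATP synthase, differed by -0.49 and -0.46. Control means of the sets lay at least 2-fold apart for 9 of the 52, and among the other 43 there were 25 called below 0, with a median of -0.26. The share of reads from mitochondrial genes was 4.91 to 5.26% in the Foxk1 set, 6.42 and 7.09% in the Foxk2 set's controls and 7.80 and 5.14% with Foxk2, so the Foxk2 overexpression replicates differed most. Of 13 mitochondrially encoded mRNAs, 2 (15.4%) were called below 0, mt-Nd1 and mt-Nd6, with a list median of -0.029. Neither was called with no filter, with quantile normalization or with trends on gene length and GC content removed, where the median was 0.15. Leaving out 1 library gave a median of -0.21 (without the second Foxk2 overexpression library) to 0.23 (without the first). The direction of the list thus turned with the Foxk2 overexpression library that was left out. Both mt-Nd1 and mt-Nd6 also lost their call without the first Foxk1 control or the second library labelled Foxk1 overexpression. The same held without the second Foxk2 control or the second Foxk2 overexpression library. Each of these genes lost its call in further fits that left out 1 library.

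Among the enzymes that feed the chain, most calls were below 0 too. Of 21 tricarboxylic acid cycle genes, 10 were below 0 and 3 above (61.9% called, beside 21.8% of all tested genes), with a median of -0.22. Sdhb, a subunit of succinate dehydrogenase, had effects of 0.53 with the Foxk1 label and 1.00 with Foxk2, and Ogdh, of the oxoglutarate dehydrogenase complex, -0.013 with the Foxk1 label and 0.37 with Foxk2. Those above 0 were Aco1, Idh2 and Pcx; Idh2 fell more with Foxk2, with effects of -0.27 with the Foxk1 label and -0.74 with Foxk2. Of 14 genes of pyruvate dehydrogenase and its regulation, 5 (35.7%) were below 0 and none above (7 and 0 at an unadjusted p under 0.05 and with voom), among them Mpc2, a subunit of the mitochondrial pyruvate carrier, at -0.64 ± 0.065 (SE; limma adjusted p = 0.000391). In that list 3 were below 0 without the second Foxk2 control or the second Foxk2 overexpression library. Of 20 fatty acid oxidation genes, 11 were below 0 and 1, Ppard, above (60.0% called), with a median of -0.22. The 11 became 6 without the first Foxk2 control and 5 without the second Foxk2 overexpression library. None was above 0 without the second Foxk2 control or that same overexpression library. Of 9 tested thermogenic genes, 5 (55.6%) were below 0 and none above (5 and 1 at an unadjusted p under 0.05, 5 and 0 with voom), with a median of -0.73. Cidea (chr18:67343604-67367785), a lipid droplet protein of brown and beige fat, stood at 3.02, 3.52 and 3.85 RPKM in the Foxk1 set's controls, 31.3, 30.6 and 32.6 RPKM in the libraries labelled Foxk1 overexpression, 1.54 and 0.937 RPKM in the Foxk2 set's controls and 31.3 and 37.5 RPKM with Foxk2 overexpression. It rose to a like level in both sets, from lower controls in the Foxk2 set, with a difference of -1.32 ± 0.20 (SE; limma adjusted p = 0.00283). Ppargc1a, the coactivator of mitochondrial genes, had effects of -0.14 with the Foxk1 label and 0.58 with Foxk2. In 3 of these 9 genes the control means lay at least 2-fold apart, and among the other 6 the median was -0.12.

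Lipid synthesis genes were also called mostly below 0. Of 19 fatty acid and triglyceride synthesis genes, 9 were below 0 and 2, Fads1 and Fads2, above (57.9% called, beside 21.8% of all tested genes), with a median of -0.22, and no gene of the list had control means 2-fold apart. Thrsp (chr7:97412938-97417730), a regulator of lipogenesis, stood at 498, 564 and 514 RPKM in the Foxk1 set's controls, 535, 551 and 542 RPKM in the libraries labelled Foxk1 overexpression, 335 and 365 RPKM in the Foxk2 set's controls and 779.9 and 779 RPKM with Foxk2 overexpression. The Foxk1 set's groups overlapped while Foxk2 lay above all libraries, a difference of -1.11 ± 0.082 (SE; limma adjusted p = 8.72e-05). Dgat2, which forms triglycerides, and Agpat2, which forms phosphatidic acid, differed by -0.72 ± 0.082 (SE; limma adjusted p = 0.000691) and -0.68 ± 0.059 (SE; limma adjusted p = 0.000189). Of 23 cholesterol synthesis genes, 8 (34.8%) were below 0 and none above (11 and 0 at an unadjusted p under 0.05, 10 and 0 with voom), with a median of -0.25; Cyp51, the lanosterol demethylase, had effects of 0.85 with the Foxk1 label and 1.71 with Foxk2. The 8 became 5 without the first Foxk2 control or the second Foxk2 overexpression library.

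Adipocyte markers were called in both directions. Of 21 tested, 7 were above 0 and 9 below (76.2% called, beside 21.8% of all tested genes), with a median of -0.067. The median was -0.32 with quantile normalization and -0.19 with trends on gene length and GC content removed. Above 0 were Fabp4, Plin1, Cidec, Cd36, Pparg, Cebpb and Lipe, of which Plin1, the lipid droplet coat protein, stood at 218, 217 and 227 RPKM in the Foxk1 set's controls, 211, 220.3 and 207 RPKM in the libraries labelled Foxk1 overexpression, 261 and 282 RPKM in the Foxk2 set's controls and 171 and 165 RPKM with Foxk2 overexpression. It overlapped with controls in the Foxk1 set and lay below them with Foxk2, a difference of 0.64 ± 0.064 (SE; limma adjusted p = 0.000389). Below 0 were Fabp5, Lpl, Retn, Pnpla2, Adig, Acsl1, Agpat2, Dgat2 and Nrg4. Lpl, lipoprotein lipase, had opposite effects of -0.24 with the Foxk1 label and 0.26 with Foxk2, a difference of -0.50 ± 0.073 (SE; limma adjusted p = 0.00211). Pnpla2, the triglyceride lipase ATGL, fell with the Foxk1 label alone, with a difference of -0.39 ± 0.068 (SE; limma adjusted p = 0.00486). Cidec, another lipid droplet protein, was not called with quantile normalization, where its difference was -0.32 (adjusted p = 0.0771), or with no filter (adjusted p = 0.078). The call of Cebpb, an early factor of fat cell differentiation, was lost in 8 of the 10 fits that left out a library (adjusted p = 0.0579 to 0.154), with quantile normalization, no filter, all 20 libraries in the fit or length and GC trends removed (adjusted p = 0.0613 to 0.111). That of Pparg, the master regulator of that process, was lost without the first Foxk2 control (adjusted p = 0.0628) or the first Foxk2 overexpression library (adjusted p = 0.0618). Plin2, which coats lipid droplets in many cell types, rose with the Foxk1 label alone, by a difference of 0.81 ± 0.063 (SE; limma adjusted p = 0.000115).

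Glycolysis, which the study's published work concerns, had called enzymes in both directions. Of 17 tested, 3 were above 0 and 3 below (35.3% called, beside 21.8% of all tested genes), with a median of 0.023 and median effects of 1.01 and 0.91. Ldhb (chr6:142490249-142507957), the lactate dehydrogenase subunit that favours pyruvate, stood at 37.2, 36.2 and 35.2 RPKM in the Foxk1 set's controls, 26.9, 27.8 and 28 RPKM in the libraries labelled Foxk1 overexpression, 35.5 and 40 RPKM in the Foxk2 set's controls and 67.7 and 73.3 RPKM with Foxk2 overexpression. It fell with the Foxk1 label and rose with Foxk2 without overlap, a difference of -1.28 ± 0.079 (SE; limma adjusted p = 3.66e-05). The phosphofructokinases Pfkp and Pfkm differed by -0.52 and -0.25, and above 0 stood Hk1 at 0.57, Eno3 at 0.44 and Gpi1 at 0.32. The call of Hk1 was lost without any 1 of the 4 Foxk2 libraries (adjusted p = 0.0502 to 0.0661). Gpi1 lost its call in 8 of the 10 fits that left out a library (adjusted p = 0.0541 to 0.15), with no filter and with length and GC trends removed. Pfkm lost its call in 6 such fits (adjusted p = 0.0539 to 0.0953) and Pfkp without the second Foxk2 overexpression library (adjusted p = 0.0504). Of 7 glucose and lactate transport genes only Bsg (14.3%) was called, at -0.31 ± 0.097 (SE; limma adjusted p = 0.0491), and that call was lost in 8 of the 10 fits that left out a library.

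**Figure D3:**
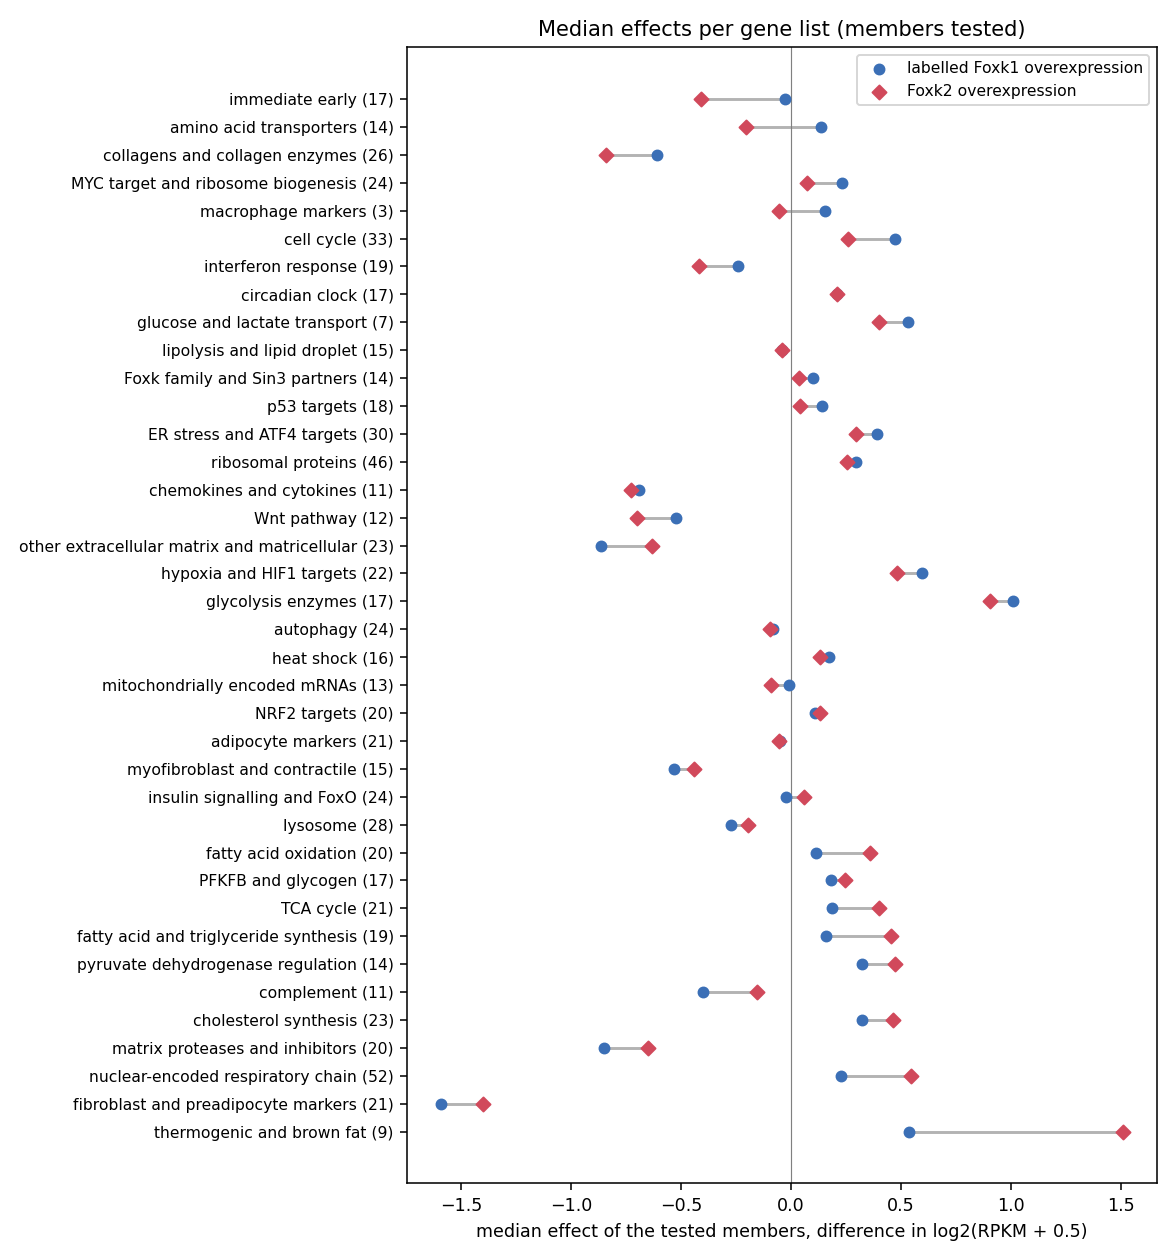
Median effect of the tested members of each gene list (number in brackets) with the Foxk1 label (circles) and with Foxk2 (diamonds), as differences in log2(RPKM + 0.5) from the controls, sorted by the median difference between the effects. Respiratory chain, tricarboxylic acid cycle and lipid synthesis lie further right with Foxk2, and immediate early genes, amino acid transporters and collagens further right with the Foxk1 label.

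In the fit of the 10 overexpression libraries, calls above 0 made up all those among amino acid transporters and MYC targets. In the list of ribosome biogenesis and MYC target genes, 9 of 24 (37.5%, beside 21.8% of all tested genes) were above 0 and none below (12 and 0 at an unadjusted p under 0.05, 11 and 0 with voom), with a median of 0.25, and 4 of them, Myc included, had opposite effects. Bop1 (chr15:76452989-76477277), a factor of ribosome assembly, stood at 23.3, 22.7 and 24 RPKM in the Foxk1 set's controls, 26.2, 27.6 and 27.3 RPKM in the libraries labelled Foxk1 overexpression, 30.4 and 32.2 RPKM in the Foxk2 set's controls and 27.1 and 26.5 RPKM with Foxk2 overexpression. It rose with the Foxk1 label and fell with Foxk2 without overlap, by 0.43 ± 0.058 (SE; limma adjusted p = 0.0015). Of 46 ribosomal protein genes, 8 were above 0 and 2 below, a share of 21.7% that is no more than that of all tested genes. Quantile normalization gave 6 and 4. Control means lay at least 2-fold apart in 36 of the 46. Of 14 amino acid transporters, 6 (42.9%) were above 0 and none below (7 and 1 at an unadjusted p under 0.05, 8 and 0 with voom), with a median of 0.30. With all 20 libraries in the fit, 7 were above 0 and 1 below. Fewer were above 0 without the second Foxk2 control, where the median was 0.29. Slc7a1, which carries cationic amino acids, had effects of 0.75 with the Foxk1 label and 0.11 with Foxk2. Of 17 immediate early genes, 10 were above 0 and 2, Klf2 and Nr4a1, below (70.6% called), with a median of 0.37. The 10 became 6 without the first or second Foxk2 control, the second Foxk2 overexpression library or the third library labelled Foxk1 overexpression. None was below 0 without either second Foxk2 library. Egr1, a zinc-finger factor induced by growth stimuli, stood at 3.81, 3.31 and 3.3 RPKM in the Foxk1 set's controls, 1.97, 1.99 and 1.98 RPKM in the libraries labelled Foxk1 overexpression, 4.19 and 3.88 RPKM in the Foxk2 set's controls and 1.35 and 1.34 RPKM with Foxk2 overexpression. It fell in both sets, more with Foxk2, with a difference of 0.62 ± 0.099 (SE; limma adjusted p = 0.00314). Fosl1, an AP-1 subunit, had opposite effects and differed by 0.93, with 57.2% of its exon bases opposite exons of Ccdc85b.

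Stress genes were called in both directions. Of 30 endoplasmic reticulum stress and ATF4 target genes, 10 were above 0 and 6 below (53.3% called, beside 21.8% of all tested genes), with a median of 0.064. Above 0 were Atf4, Ddit3, Trib3, Chac1, Phgdh, Shmt2, Mthfd2, Sesn2, Ppp1r15a and Slc7a5, and below 0 were Hspa5, Hsp90b1, Calr, Dnajb9, Creld2 and Manf, which serve folding in the endoplasmic reticulum. Sesn2 (chr4:132492032-132510501), a stress-induced regulator of mTORC1, stood at 8.18, 8.32 and 7.96 RPKM in the Foxk1 set's controls, 15.1, 15.2 and 15.9 RPKM in the libraries labelled Foxk1 overexpression, 12.9 and 14.1 RPKM in the Foxk2 set's controls and 14.3 and 14.1 RPKM with Foxk2 overexpression. It rose with the Foxk1 label alone, a difference of 0.81 ± 0.066 (SE; limma adjusted p = 0.000138). Dnajb9 (chr12:44205559-44210326), a co-chaperone of that compartment, stood at 50.4, 46.9 and 48.8 RPKM in the Foxk1 set's controls, 40.6, 38.8 and 39.4 RPKM in the libraries labelled Foxk1 overexpression, 22 and 22.7 RPKM in the Foxk2 set's controls and 40 and 41 RPKM with Foxk2 overexpression. It fell with the Foxk1 label and rose with Foxk2, a difference of -1.14 ± 0.056 (SE; limma adjusted p = 1.36e-05). Of 18 p53 target genes, 7 were above 0 and 2 below (50% called). None was below 0 without the second Foxk2 control or the second Foxk2 overexpression library. Gadd45a, a DNA damage response gene of that list, stood above 0 at 0.82 ± 0.082 (SE; limma adjusted p = 0.000378).

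Matrix genes differed in both directions. Of 26 collagens and collagen enzymes, 14 were above 0 and 5 below (73.1% called, beside 21.8% of all tested genes), with a median of 0.27. The 14 became 8 without the second Foxk2 control, and the counts became 8 and 7 with a median of 0.095 when trends on gene length and GC content were removed. Col6a3 (chr1:90765923-90843971), a chain of collagen VI, stood at 107, 97.7 and 104 RPKM in the Foxk1 set's controls, 82.5, 79.3 and 82.1 RPKM in the libraries labelled Foxk1 overexpression, 151 and 157 RPKM in the Foxk2 set's controls and 66.1 and 64.3 RPKM with Foxk2 overexpression. It fell without overlap in both sets, more with Foxk2, by 0.90 ± 0.061 (SE; limma adjusted p = 5.6e-05). Lox, which crosslinks collagen, went the other way at -0.76 ± 0.09 (SE; limma adjusted p = 0.000856). Of 21 fibroblast and preadipocyte markers, 9 were below 0 and 3 above (57.1% called), with a median of -0.35, and 8 of the 21 had control means at least 2-fold apart. Only 1 was above 0 without either Foxk2 control or without the second Foxk2 overexpression library. Pdgfra (chr5:75152292-75198215), a receptor of preadipocytes, stood at 33.1, 27.5 and 31.6 RPKM in the Foxk1 set's controls, 4.44, 4.27 and 4.38 RPKM in the libraries labelled Foxk1 overexpression, 23.7 and 22.1 RPKM in the Foxk2 set's controls and 6.22 and 6.01 RPKM with Foxk2 overexpression. It fell in both sets, more with the Foxk1 label, by -0.86 ± 0.10 (SE; limma adjusted p = 0.000818). Among the 13 markers with control means less than 2-fold apart, 4 were below 0 and 3 above, with a median of -0.195. The count below 0 among all 21 also fell without the second Foxk2 control or the second Foxk2 overexpression library. Of 11 complement genes, 6 were below 0 and 1, C1qtnf1, above (63.6% called). The 6 became 3 without the first Foxk2 control or the second Foxk2 overexpression library. Control means lay at least 2-fold apart in 5 of the 11 complement genes. The rest held 2 below 0 and 1 above, with a median of -0.0465 beside -0.24 for all 11. C1s1, a protease of the classical pathway, differed by -1.11 ± 0.096 (SE; limma adjusted p = 0.000189).

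Interferon, cell cycle and hypoxia genes were called in 0%, 6.06% and 18.2% of their members, beside 21.8% of all tested genes. Of 19 interferon response genes limma called none, against 2 above 0 and 1 below at an unadjusted p under 0.05 and 1 below with voom on recovered reads. Without the first Foxk2 control 4 were called above 0. Of 33 cell cycle genes 2 were called, Plk1 and Mcm7, both above 0, with a list median of 0.19. At an unadjusted limma p under 0.05, 9 were above 0 and 0 below, against 3 above and 1 below with voom. The call of Plk1 was lost with voom (adjusted p = 0.37) and with a pseudocount of 0.1 (adjusted p = 0.0673). Of 22 hypoxia and HIF1 targets, 1 was above 0 and 3 below, among them Egln3, a prolyl hydroxylase that marks HIF for decay, at -1.23 ± 0.18 (SE; limma adjusted p = 0.00214). Without the second Foxk1 control 4 were above 0. Of 24 genes of insulin signalling and FoxO, 8 were below 0, including Foxo1 at -0.40, and 1, the insulin receptor substrate Irs2, above at 0.57 ± 0.081 (SE; limma adjusted p = 0.00185) (37.5% called). The 8 became 4 without the second Foxk2 control or the second Foxk2 overexpression library. Of 24 autophagy genes, 4 were above 0 and 3 below (29.2% called). In that list 1 was above without the second Foxk2 control and 2 without either Foxk2 overexpression library. Of 14 Foxk family and SIN3 partner genes, 4 were above 0 and 2 below (42.9% called), the targets included. In that list 2 were above without the first Foxk2 control or the second Foxk2 overexpression library.

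Further lists had called members in both directions, beside 21.8% of all tested genes. Of 15 lipolysis and lipid droplet genes, 4 were above 0 and 5 below (60.0%). Among these calls, Lipe, Plin1, Cidec and Pnpla2 were also counted with the adipocyte markers and Cidea with the thermogenic genes. Of 23 other extracellular matrix genes, 8 were above 0 and 5 below (56.5%). The proteoglycan fibromodulin, Fmod, differed by -1.17 ± 0.16 (SE; limma adjusted p = 0.00159). Of 17 glycogen and PFKFB genes, 1, the glycogen synthase Gys1, was above 0 and 4 below (29.4%), among them Ppp1r3b, a subunit that brings phosphatase to glycogen, at -1.03 ± 0.14 (SE; limma adjusted p = 0.00137). Of 16 heat shock genes, 5 were above 0 and 2 below (43.8%). The small heat shock protein gene Hspb1 differed by 0.83 ± 0.12 (SE; limma adjusted p = 0.00185). Its value is uncertain, since 51.8% of its transcript is matched by near-identical copies at 99% identity. Of 17 circadian clock genes, 5 were above 0, the repressor Per2 at 0.50 ± 0.09 (SE; limma adjusted p = 0.00546) among them, and 2 below (41.2%). Of 15 myofibroblast genes, 2 were above 0 and 3 below (33.3%), of 12 Wnt pathway genes 1 and 3 (33.3%), and of 11 chemokine and cytokine genes 2 and 2 (36.4%). Cxcl12, a chemokine of stromal cells, fell in both sets, more with the Foxk1 label, by -1.11 ± 0.097 (SE; limma adjusted p = 0.00019). Of 28 lysosome genes, 2 were above 0 and 6 below (28.6%), and of 20 NRF2 targets 1 and 5 (30%). Counts in the smaller of these lists moved by over 1.5 times when single libraries were left out, among them the second Foxk2 control and the second Foxk2 overexpression library. The ranges above and below 0 were then 2 to 4 and 1 to 3 for clock genes, 4 to 6 and 0 to 3 for heat shock genes, and 0 to 2 and 3 to 5 for NRF2 targets. They were 2 to 4 and 0 to 3 for myofibroblast genes, 1 to 2 and 1 to 3 for Wnt pathway genes, 1 to 3 and 2 for chemokine and cytokine genes, and 1 to 3 and 4 to 8 for lysosome genes. No endothelial marker was tested, none of 3 macrophage markers was called, and of 2 tested muscle and chondrocyte markers Sox9 was called below 0.

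The knockdown libraries of the series, which share no library with the 10 above, gave the same contrast for loss of the factors. There, 2049 of the 15085 genes (13.6%) differed between Foxk1 and Foxk2 knockdown. Of the 3286 genes called with overexpression, 819 (24.9%) were called with knockdown, which is 40% of the knockdown calls. The signs were opposite in 675 of the 819 (82.4%), 336 above 0 with overexpression and below 0 with knockdown and 339 the reverse, and the same in 144. Over all tested genes the fitted signs were opposite in 61.4%, and over genes called with overexpression in 72.9%. Among genes called in both contrasts, the opposite share fell from 82.4% to 73.9% when trends on gene length and GC content were removed. It lay between 81.6 and 83.8% in the other alternatives. Of the 320 genes with opposite overexpression effects, 92 were called with knockdown, 81 of them with the opposite sign. Without any 1 of the 4 libraries of the Foxk2 knockdown set, 897 to 1362 genes were called in place of 2049.

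Among the genes described above, Apoc1 and Synm were below 0 with overexpression and above 0 with knockdown, at 0.96 ± 0.088 (SE; limma adjusted p = 0.000603) and 0.76 ± 0.096 (SE; limma adjusted p = 0.00197). Cyp2b10 stood at 0.91 ± 0.14 (SE; limma adjusted p = 0.00437), but its means in the Foxk1 knockdown set were 0.016 RPKM in controls and 0.0172 RPKM with knockdown. That value is in essence its fall with Foxk2 knockdown, from 3.90 to 1.86 RPKM. Ccdc80 and Sox12 were above 0 with overexpression and below 0 with knockdown, at -0.63 ± 0.075 (SE; limma adjusted p = 0.00158) and -1.02 ± 0.25 (SE; limma adjusted p = 0.0332). Spp1, Aqp1 and Egln3 kept their sign, with knockdown differences of 0.66 ± 0.12 (SE; limma adjusted p = 0.00901), 1.27 ± 0.13 (SE; limma adjusted p = 0.000914) and -1.43 ± 0.17 (SE; limma adjusted p = 0.00165), and so did Ogn at -0.56 ± 0.075 (SE; limma adjusted p = 0.0025). Of the targets, Foxk1 was below 0 with knockdown at -1.53 ± 0.098 (SE; limma adjusted p = 0.000187) and Foxk2 above 0 at 1.64 ± 0.076 (SE; limma adjusted p = 9.51e-05).

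**Figure D4:**
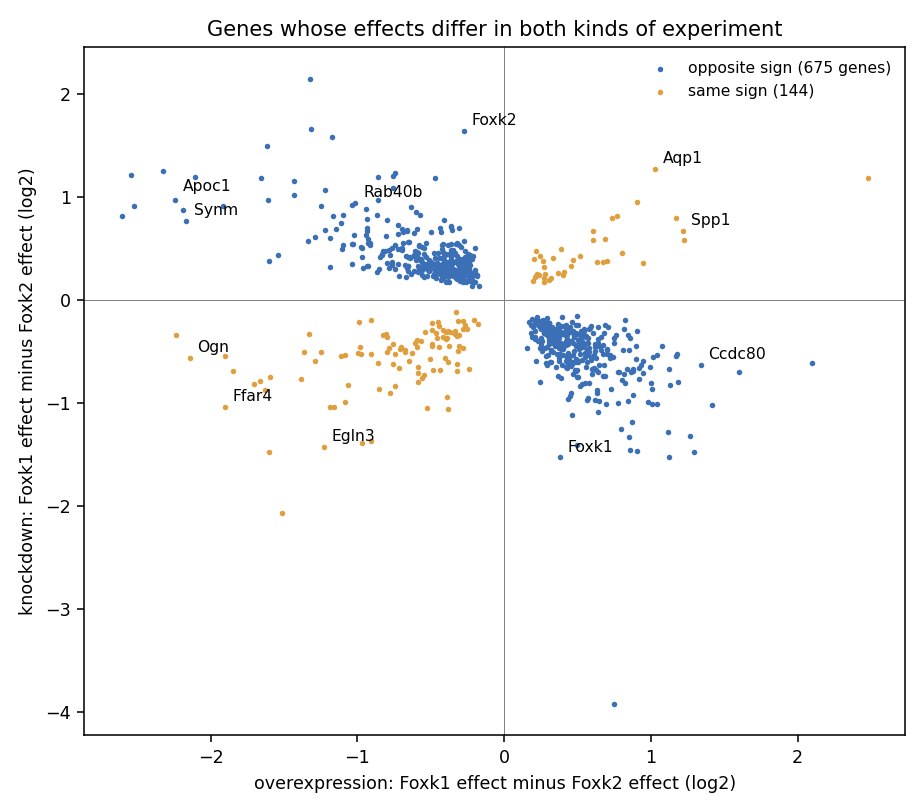
Difference between Foxk1 and Foxk2 effects with overexpression (horizontal) against the same difference with knockdown (vertical), in log2(RPKM + 0.5), for the 819 genes called in both; the 2 contrasts share no library. Most points, 675, lie at the upper left and lower right of the origin, and 144 have the same sign in both.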

How the data were processed

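RNA sequencing of 3T3-L1 adipocytes was analysed from 1 deposited table of RPKM values, with 48440 genes. Per the submitters' processing notes, the authors used HISAT2 2.1.0, Picard 1.141, featureCounts of Subread 1.5.1 and edgeR, with build mm10; the strand setting is not given in the sources used here. GENCODE M21 supplied symbols and coordinates.

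Genes at 0.5 RPKM or more in at least 2 of the 10 overexpression libraries were tested in limma 3.58.1 (R 4.3.3) on log2(RPKM + 0.5), with 4 group means, 6 residual degrees of freedom and a mean trend in the prior variance. The pseudocount understates effects of low genes, and more in the set where a gene is lower. Calls used a two-sided Benjamini-Hochberg adjusted p under 0.05 over all tested genes. RPKM values gave whole reads within 0.1 read, hence depth; voom on these reads was an alternative. Errors are model SEs. The median within-group SD of log2 values was 0.0526 to 0.0803.

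Members and lists were chosen with earlier results of these data known. Some genes belong to more than 1 list, so the shares of the lists are not separate observations. Named were both targets, the 10 largest differences per direction among called genes whose level reached 2 RPKM in some group of each set, ranges apart in at least 1 set and no predicted name, 8 opposite genes per orientation, up to 4 called members of each list by p, and all called glycolysis, transport, adipocyte and thermogenic genes; members listed by name beyond these were chosen after their values were seen. The calls of a further list are not reported here. Near-identical copies were searched with BLAST+ 2.17.0 at 99% identity over 100 bases. The scripts were tested on simulated data, in 10 draws of 15085 genes with 200 changed. With effects set on log2(RPKM + 0.5), 15.9% of calls were false, a mean of 36.1 per draw. With effects set on reads, 47.8% were false, a mean of 174 per draw or 1.17% of genes. Both shares lay above what the adjusted p threshold aims for. The share of false calls in the real data was not tested. Alternatives changed the pseudocount, filter, scaling, model, weights, replicate block and length and GC trends, and left out each library; omission of knockdown libraries was added after the data were seen. Figures used matplotlib 3.10.9.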

Additional observations from a re-analysis of the deposited data

Results flagged for a closer look

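The effects of the libraries labelled Foxk1 overexpression and of Foxk2 overexpression on Foxk1 RNA differed by 0.38 in the limma test of the difference itself, although Foxk1 RNA was lower than in the controls in both sets. The effects on Foxk2 RNA differed by -0.28 in the same test. Both single effects and their difference passed the test, with opposite directions, in 320 genes. The 2 sets also differ in depth, number of replicates and control levels, and the factors cannot be told apart from these.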

How the results depend on the processing

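Across the other pseudocounts, filters, scalings and models, between 2455 and 4046 genes were called in place of 3286, within 1.5 times of that count. Leaving out each library in turn gave 1921 to 3280 called genes, 832 to 1584 above 0, 958 to 1696 below 0 and 192 to 337 opposite. For knockdown, leaving out each library, an alternative chosen after seeing the data, gave 897 to 2160 genes in place of 2049. Where an arm keeps 1 library, that library is assumed to vary like the other groups. Whether replicate numbers pair the libraries was not settled. Correlations of deviations between the same-numbered libraries were -0.060 to 0.029. In the Foxk2 set, 2 libraries per group give deviations that mirror each other, so the check cannot decide there. A replicate block gave 2455 called genes, 245 with opposite effects, and 1348 with knockdown. The last is 1.5 times fewer than without it, and the cause was not tested. With that block the calls of Bsg, Cebpb, Gclm, Lrp6, Pparg, Scd3, Wnt5a and mt-Nd6 were lost (adjusted p = 0.0543 to 0.116), 4 insulin signalling genes were below 0 in place of 8, 1 Wnt pathway gene in place of 3, and no fatty acid oxidation gene was above 0. Among named genes, 1 value turned: Cidec became -0.32 with quantile normalization (adjusted p = 0.0771). For glucose and lactate transport genes the median difference turned to -0.0999 with length and GC trends removed, and it ran from -0.013 (without Foxk2 control replicate 2) to 0.189 when a library was left out; the cause was not tested. Named genes lost their call in 41 gene and setting pairs and in 85 pairs that left out a library. Genes under 2 RPKM in every group of a set were called in 10.8% of cases, against 28.3% of the others; the parts of depth and of the pseudocount in this were not tested.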
